A study of Mus musculus with 11 samples.

Results

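The FGF-ERK genes described here are 10 genes of the fibroblast growth factor pathway, measured by RNA sequencing in mouse embryonic stem cells with degradable CTCF. They are the ligand genes Fgf4 and Fgf10, the receptor genes Fgfr1 and Fgfr2, the transcription factor genes Etv4, Etv5 and Egr1, and the feedback genes Dusp6, Spry2 and Spry4. They were selected on earlier results for these same libraries, that is, on expression values across the 4 groups below, and which comparison decided the choice is not recorded. The values of these genes are therefore given as a description, without p-values, and nothing is supported with them. The same limit holds for their calls and for how often a call was kept when the fit was changed. All 10 were found among the 55228 gene symbols of the count table, and all 10 were among the 16420 genes with enough counts to be tested.

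The cells were the CTCF-AID line EN52.9.1, whose own CTCF protein carries a degron, so that auxin triggers its degradation. CTCF binds DNA through zinc fingers and helps to fold chromosomes into loops. Cells labelled EV were measured without auxin (EV untreated, 3 libraries) and with 500 µM of the auxin analogue indole-3-acetic acid (EV auxin, 2 libraries). Auxin-treated cells with reintroduced FL CTCF (FL, 3 libraries) and auxin-treated cells with reintroduced H373R CTCF (H373R, 3 libraries) carried the same degron and were kept in the same medium, with serum and leukaemia inhibitory factor (LIF). Titles in the last group say ZF4, while its genotype label gives the substitution. All groups come from 1 cell line. No auxin-treated line lacking the degron is among these libraries, so loss of CTCF and exposure to auxin cannot be told apart in the comparison of EV auxin with EV untreated. FL and H373R have no libraries without auxin. Against EV untreated, their auxin and their reintroduced CTCF therefore cannot be told apart. Other differences between the EV, FL and H373R cells, such as the level of reintroduced CTCF, were not tested. The labels do not say whether replicates are separate cultures, so p-values measure only the spread between these libraries, which may be technical.

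Fibroblast growth factors bind receptor tyrosine kinases together with heparan sulphate, and the activated receptor signals through the RAS, RAF, MEK and ERK proteins to transcription factors of the ETS and early growth response families. Several genes switched on by ERK encode inhibitors of the same route, and their transcripts are often read as a sign of pathway activity. Embryonic stem cells make their own FGF4, whose signal readies them to leave self-renewal and, in the blastocyst, favours primitive endoderm over epiblast.

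Total counts per library were 13465241 to 29902246. EV untreated replicate 1 stood apart from its group, with a chi-square per degree of freedom of 16 and 15.1 against replicates 2 and 3, against 1.96 between those 2 and 2.19 to 5.06 within the other groups. Results are therefore also given without it where they change. The summed level of 9 embryonic stem cell markers was 12000 to 13200 TPM (a level scaled for transcript length and library size) over all libraries, with none at 0. The summed level of 12 primitive endoderm markers was 121 to 133 TPM in EV untreated, 115 to 124 in EV auxin, 258 to 280 in FL and 185 to 205 in H373R libraries, with none at 0. All 12 were higher in FL and in H373R than in EV auxin in the test described below, with median log2 fold changes of 1.47 and 1.03. Gata6, a defining factor of primitive endoderm, stood at 18.1 ± 0.322 CPM (counts scaled to a fixed library total, ± SD) over 3 FL libraries and at 10.8 ± 0.555 over 3 H373R libraries, against 4.48 ± 0.292 over 2 EV auxin libraries. This order, FL above H373R above EV auxin, recurs in Fgf4 and Dusp6 without overlap of libraries. It also holds for the group means of Fgf10, Etv4 and Spry2. It does not hold for those of Spry4, Etv5, Fgfr2, Fgfr1 and Egr1. Spry4, Etv5 and Fgfr2 had lower means in H373R than in EV auxin, and Fgfr1 and Egr1 had lower means in FL than in H373R and EV auxin. In EV untreated the likeness of Fgf4 and Dusp6 to Gata6 is not kept. Gata6 stood there at 4.21 ± 0.0393 CPM, Fgf4 at 221 ± 10.8 and Dusp6 at 30.6 ± 0.739 over 3 libraries. The part of the endoderm markers in the values of these genes was not tested. In RNA from whole cultures, fewer cells that express a gene and less RNA per cell cannot be told apart.

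Measured per transcript length in EV untreated cells, Etv5 had the highest mean level of the 10 genes, at 302 TPM, followed by Fgf4 at 260 TPM. Spry2 stood at 164, Etv4 at 149, Spry4 at 85.8, Fgfr1 at 48.3 and Dusp6 at 36.7 TPM. Egr1 (10.1 TPM), Fgfr2 (3.005 TPM) and Fgf10 (1.65 TPM) were the least abundant. Between groups, levels below are CPM after scaling of library sizes, and differences are log2 fold changes with the standard error (SE) of the model.

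Differences between groups were called at an adjusted p under 0.05 by edgeR's quasi-likelihood test over all 16420 genes. In EV auxin against EV untreated, 4 of the 10 genes were called, 1 higher and 3 lower, where 20.7% of all tested genes were called (11.3% higher and 9.40% lower). In FL against EV auxin, 8 were called, 7 higher and 1 lower, where 24.5% of all tested genes were called (11.1% higher and 13.4% lower). In H373R against EV auxin, 8 were called, 4 of them lower, where 21.7% of all tested genes were called and 11.7% were lower. These last comparisons share the EV auxin libraries and are not independent of each other. In H373R against FL, 6 were called, all lower, where 5.96% of all tested genes were called (3.14% higher and 2.82% lower). In FL against EV untreated 8 were called (5 higher and 3 lower), where 36.9% of all tested genes were called (17.7% higher and 19.2% lower). In H373R against EV untreated 8 were called (3 higher and 5 lower), where 44.4% were called (22.3% higher and 22.1% lower). Without EV untreated replicate 1 the counts were 4, 9, 8, 6, 8 and 8 in the same order, where 33.3%, 35.5%, 33.0%, 14.2%, 47.2% and 54.7% of all tested genes were called. Because the genes were chosen with these results known, nothing is read from their counts beside those shares. The median log2 fold change of the 10 genes was -0.025 in EV auxin against EV untreated, 0.36 in FL against EV auxin, -0.005 in H373R against EV auxin and -0.27 in H373R against FL, where the medians of all tested genes were 0.009, -0.014, 0 and 0.002.

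**Figure D1:**
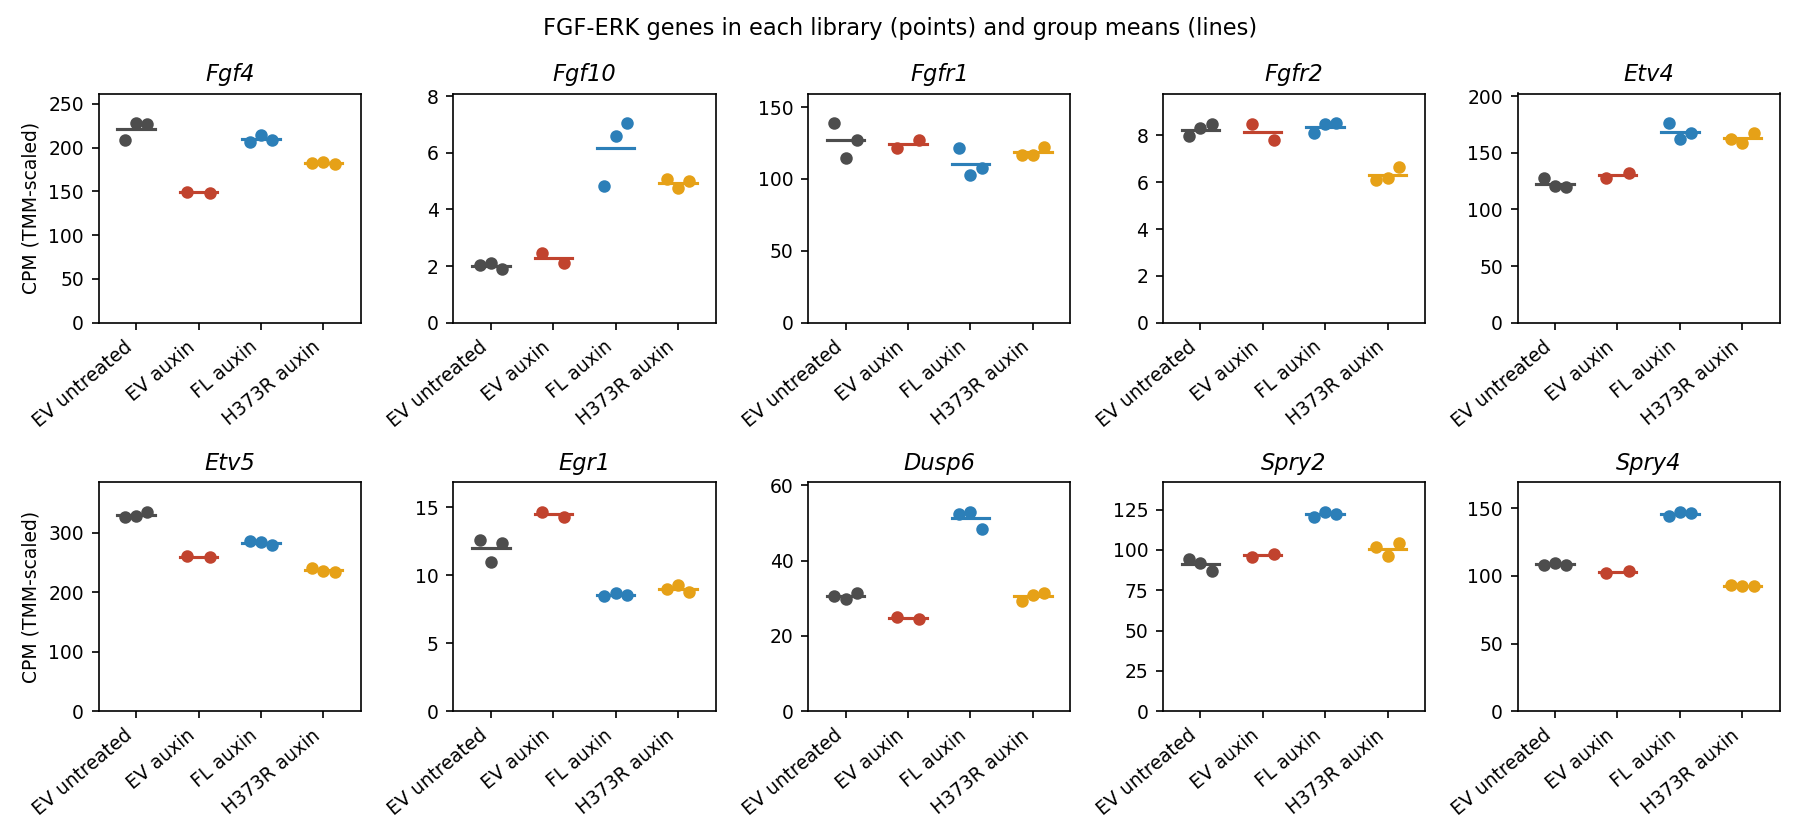
Level of each of the 10 FGF-ERK genes in every library, in CPM after TMM scaling of library sizes (vertical axes start at 0 and differ between panels). Points are libraries and lines are group means of 3 EV untreated, 2 EV auxin, 3 FL and 3 H373R libraries; the Dusp6 panel shows the FL libraries at 48.4 to 52.9 CPM above every other library (24.6 to 31.5 CPM).

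Fgf4 encodes the main fibroblast growth factor that embryonic stem cells secrete. It stood at 209, 228 and 227 CPM in the EV untreated libraries, at 149.7 and 149 CPM in the EV auxin libraries, at 206, 214 and 209 CPM in FL and at 183, 184 and 181 CPM in H373R. The group means with their SD were 221 ± 10.8 CPM in EV untreated (n = 3), 149 ± 0.773 in EV auxin (n = 2), 209.7 ± 4.18 in FL (n = 3) and 182.5 ± 1.41 in H373R (n = 3). EV auxin was the lowest group and H373R the next, both apart from all other libraries, while the FL and EV untreated ranges overlapped. On the log2 scale Fgf4 lay at -0.57 ± 0.051 (SE) in EV auxin against EV untreated, 0.49 ± 0.051 in FL against EV auxin and 0.29 ± 0.051 in H373R against EV auxin, and each was called. Against EV untreated, Fgf4 was called lower in H373R (-0.28 ± 0.045) and was not called in FL (-0.08 ± 0.045). H373R lay below FL by -0.20 ± 0.045, a call that was lost without FL replicate 2 (-0.185), FL replicate 3 (-0.204), H373R replicate 2 (-0.206) or H373R replicate 3 (-0.203). Without EV untreated replicate 1, FL was called below EV untreated, at -0.12.

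Fgf10 encodes a ligand known from the budding of lung and limb, where it signals mainly to a splice form of FGFR2. It was near the lower end of detection in stem cells, with 43 to 61 counts in each EV library, and stood at 2.03, 2.11 and 1.91 CPM in EV untreated and 2.45 and 2.12 CPM in EV auxin. FL libraries had 4.82, 6.61 and 7.04 CPM and H373R libraries 5.08, 4.76 and 5.00 CPM. All FL and H373R libraries lay above all EV libraries, and the FL and H373R ranges overlapped. Against EV auxin the log2 fold change was 1.43 ± 0.18 (SE) in FL and 1.13 ± 0.18 in H373R, both called, and that of EV auxin against EV untreated was 0.17 ± 0.20, not called. H373R against FL gave -0.30 ± 0.13, not called, but called without FL replicate 1, the lowest FL library, at -0.47. EV auxin was not called apart from EV untreated in Fgf10, while FL was called above EV untreated at 1.60 ± 0.15 and H373R at 1.30 ± 0.15. Both groups differ from EV untreated in auxin as well as in reintroduced CTCF.

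The 250 bases before the RefSeq start of the Fgf4 and Fgf10 genes are shown because the ligand genes differ in their letters there. A link of these letters to the levels was not tested. GENCODE M21 begins both genes further upstream, at 144847367 for Fgf4 and 118669791 for Fgf10. Fgf4 lies on chromosome 7 at 144861386 to 144865245 and Fgf10 on chromosome 13 at 118714699 to 118792573, both on the plus strand (RefSeq, GRCm38.p6). Their windows are chr7:144861136-144861385 and chr13:118714449-118714698. Capitals mark a G-quadruplex pattern, which is 4 runs of GGG that are 1 to 7 bases apart, read on either strand. On the printed strand of Fgf10 it appears as runs of CCC, from 211 to 169 and from 114 to 92 bases before the start. The Fgf4 window does not hold it.
Fgf4: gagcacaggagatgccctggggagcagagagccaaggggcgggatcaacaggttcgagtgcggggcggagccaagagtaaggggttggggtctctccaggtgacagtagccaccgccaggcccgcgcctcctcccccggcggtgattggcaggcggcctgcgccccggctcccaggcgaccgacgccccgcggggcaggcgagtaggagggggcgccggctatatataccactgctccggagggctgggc
Fgf10: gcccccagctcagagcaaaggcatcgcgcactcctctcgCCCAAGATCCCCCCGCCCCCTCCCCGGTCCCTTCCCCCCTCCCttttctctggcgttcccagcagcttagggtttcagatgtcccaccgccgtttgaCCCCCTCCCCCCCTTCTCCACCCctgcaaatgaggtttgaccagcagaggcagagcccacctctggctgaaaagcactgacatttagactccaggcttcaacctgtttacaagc

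Fgfr1, which encodes the main FGF receptor of embryonic stem cells, stood at 139, 115 and 127 CPM in EV untreated and 121.5 and 127 CPM in EV auxin. FL libraries had 121, 103 and 108 CPM and H373R libraries 116.9, 116.6 and 122 CPM. The ranges of EV untreated, EV auxin and H373R overlapped, and all FL libraries lay below both EV auxin libraries. None of the comparisons between auxin-treated groups was called for Fgfr1, with log2 fold changes of -0.17 ± 0.078 (SE) in FL against EV auxin, -0.07 in H373R against EV auxin and 0.10 in H373R against FL. The FL difference from EV auxin was called without EV untreated replicate 1 (-0.15) and without FL replicate 1 (-0.24). FL against EV untreated was called, at -0.20 ± 0.069, and the call was lost under 9 of 19 alternatives, among them without EV untreated replicate 1 (-0.12), EV untreated replicate 3 (-0.195), FL replicate 2 (-0.147), FL replicate 3 (-0.174) and each of 2 H373R and 2 EV auxin libraries (-0.197 to -0.188). An annotated long noncoding RNA, Gm16159, overlaps Fgfr1, and whether reads were counted by strand is not stated.

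Fgfr2 encodes the receptor linked to extraembryonic endoderm and to epithelia. It stood at 7.96, 8.32 and 8.48 CPM in EV untreated, 8.50 and 7.80 CPM in EV auxin, 8.11, 8.51 and 8.52 CPM in FL, and 6.11, 6.18 and 6.65 CPM in H373R. The H373R libraries were lower than every other library, and the other groups overlapped. H373R had log2 fold changes of -0.36 ± 0.097 (SE) against EV auxin, -0.40 ± 0.089 against FL and -0.38 ± 0.085 against EV untreated, and all were called. The call against EV auxin was kept in 13 of 19 alternatives. It was lost with DESeq2 (-0.352), with no filter on low counts (-0.346), and without EV auxin replicate 1 (-0.303), EV auxin replicate 2 (-0.425), H373R replicate 1 (-0.333) or H373R replicate 2 (-0.333). The call against FL was lost without FL replicate 3 (-0.389) or H373R replicate 2 (-0.389), while the call against EV untreated was kept in all 19 alternatives. In this gene FL and EV auxin differed by 0.04 and EV auxin and EV untreated by -0.02, neither called.

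Etv4 and Etv5 encode closely related ETS factors of the PEA3 group that are switched on by FGF signalling in many tissues. Etv4 stood at 127, 121 and 119.6 CPM in EV untreated and 128 and 132 CPM in EV auxin. FL libraries had 176, 162 and 167 CPM and H373R libraries 162, 159 and 167 CPM. All FL and H373R libraries lay above all EV libraries, and FL and H373R overlapped. The log2 fold change against EV auxin was 0.37 ± 0.053 (SE) in FL and 0.32 ± 0.053 in H373R, both called in every alternative, and H373R differed from FL by -0.05 ± 0.047, not called.

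Etv5 did not share the pattern of Etv4. It stood at 326, 328 and 335 CPM in EV untreated, 259.8 and 259 CPM in EV auxin, 285, 285 and 279 CPM in FL, and 240.5, 235 and 234 CPM in H373R. The 4 groups did not overlap, in the order EV untreated, FL, EV auxin and H373R. The log2 fold change was -0.35 ± 0.044 (SE) in EV auxin against EV untreated and -0.26 ± 0.039 in H373R against FL, both called in every alternative. The differences from EV auxin were small, at 0.13 ± 0.044 in FL and -0.13 ± 0.044 in H373R. Both were called, but the FL call was kept in 9 of 19 alternatives and the H373R call in 6 of 19. The FL call was lost without any 1 of the FL or EV auxin libraries or without EV untreated replicate 3 (0.121 to 0.137), and the H373R call was lost without any 1 library other than EV untreated replicate 1 (-0.142 to -0.117). Unlike Fgf4, Etv5 was called below EV untreated in both FL (-0.22 ± 0.039) and H373R (-0.48 ± 0.039).

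Egr1 encodes a zinc finger factor that ERK switches on within minutes. It stood at 12.6, 11.01 and 12.3 CPM in EV untreated, 14.7 and 14.3 CPM in EV auxin, 8.45, 8.66 and 8.52 CPM in FL, and 8.99, 9.25 and 8.73 CPM in H373R. EV auxin was highest, EV untreated next, and all FL and H373R libraries were lower than all EV libraries. FL lay at -0.76 ± 0.091 (SE) and H373R at -0.69 ± 0.087 on the log2 scale against EV auxin, called in every alternative, and H373R differed from FL by 0.07 ± 0.086, not called. The higher level in EV auxin than in EV untreated, 0.27 ± 0.084, was called, and the call was lost in 11 of 19 alternatives, among them DESeq2 (0.25) and leaving out EV untreated replicate 2 (0.207), EV untreated replicate 3 (0.284), either EV auxin library (0.252 and 0.272) or any H373R library (0.251 to 0.26). Egr1 was the gene of the 10 that was lower in FL than in EV auxin by the test, while Dusp6, Spry2, Spry4, Etv4, Etv5, Fgf4 and Fgf10 were higher there. The summed level of 15 other immediate early genes was 713 to 857 TPM in EV untreated, 764 to 828 in EV auxin, 788 to 863 in FL and 842 to 887 in H373R libraries. Ier2 had the highest mean level of the 15 in every group.

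**Figure D2:**
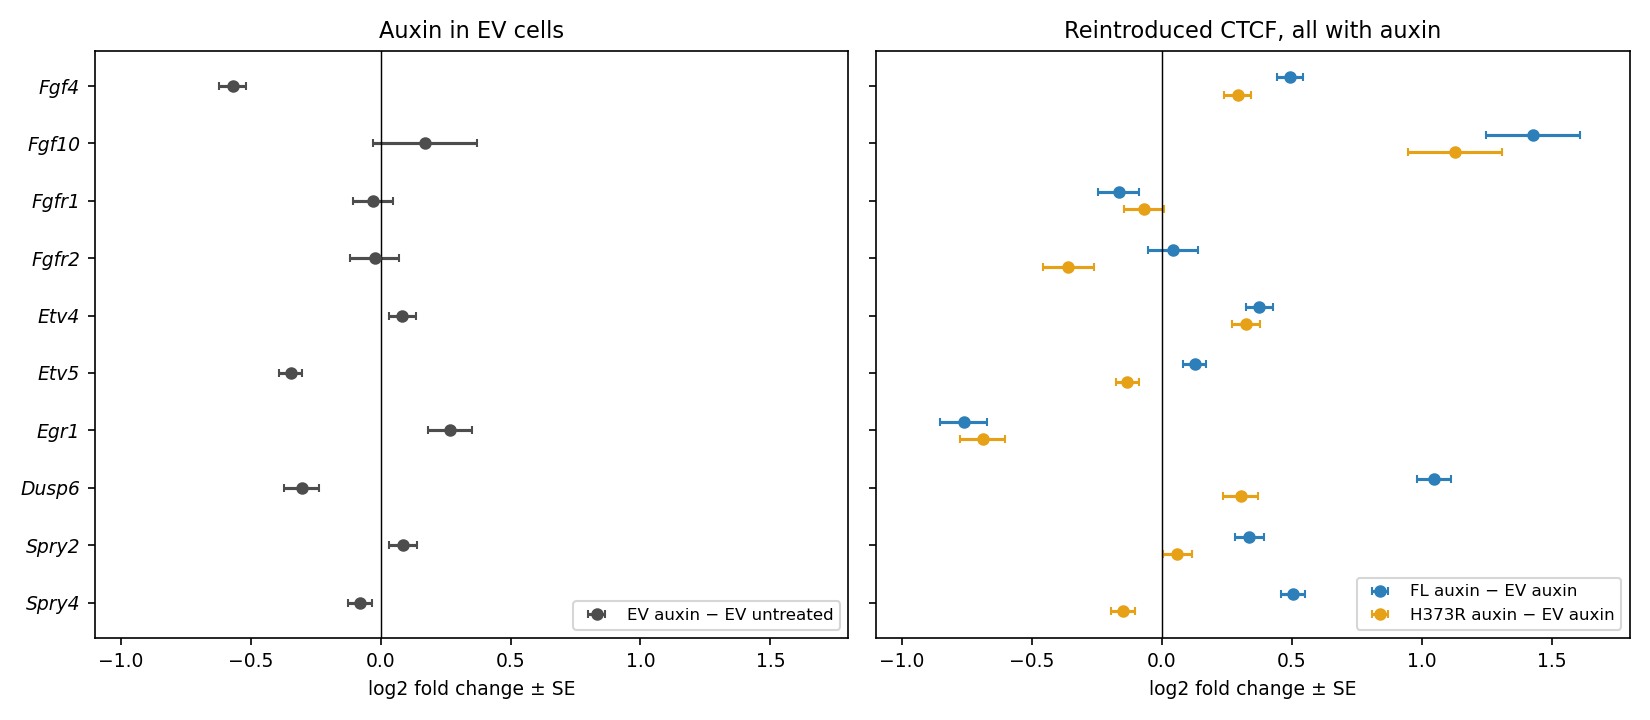
Log2 fold change of each FGF-ERK gene with the standard error of the edgeR model (horizontal bars). The left panel compares 2 EV auxin with 3 EV untreated libraries, and the right panel compares 3 FL (blue) and 3 H373R (orange) libraries with the same 2 EV auxin libraries; Dusp6 (1.05 and 0.30) and Spry4 (0.51 and -0.15) show the widest gaps between the colours.

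In the feedback genes Dusp6, Spry2 and Spry4, which were chosen with earlier results known, all FL libraries lay above all other libraries. Not all feedback genes shared this. Dusp9, for example, stood at 345 to 397 CPM in FL and higher, at 415 to 422 CPM, in H373R libraries. Dusp6 encodes a phosphatase that removes phosphate from ERK. It stood at 30.5, 29.9 and 31.3 CPM in EV untreated, 24.98 and 24.6 CPM in EV auxin, 52.4, 52.9 and 48.4 CPM in FL, and 29.3, 30.9 and 31.5 CPM in H373R. FL was above and EV auxin below all other libraries, and H373R overlapped EV untreated. The log2 fold change of FL against EV auxin was 1.05 ± 0.067 (SE), against 0.30 ± 0.068 in H373R, and both were called. H373R lay at -0.74 ± 0.058 against FL, and FL at 0.74 ± 0.058 against EV untreated, while H373R differed from EV untreated by -0.001 ± 0.058. EV auxin against EV untreated was called at -0.30 ± 0.068. Without EV auxin replicate 2 this last call and that of H373R against EV auxin were lost, at -0.303 and 0.291. A long noncoding RNA, Gm34921, is annotated over Dusp6.

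Spry2 and Spry4 encode Sprouty proteins, which block the signal between receptor and RAF. Spry2 stood at 94.1, 92.1 and 87.2 CPM in EV untreated, 95.7 and 97.6 CPM in EV auxin, 120.3, 124 and 122 CPM in FL, and 102, 96.0 and 104.5 CPM in H373R. FL was above all other libraries, and H373R overlapped EV auxin. The log2 fold change was 0.34 ± 0.055 (SE) in FL against EV auxin and -0.28 ± 0.049 in H373R against FL, both called in every alternative, and 0.06 ± 0.054 in H373R against EV auxin, not called. Against EV untreated, FL was called at 0.42 ± 0.049 and H373R at 0.14 ± 0.048, the latter kept in 15 of 19 alternatives and lost with only the compared groups in the fit (0.145) and without EV untreated replicate 3 (0.113), H373R replicate 1 (0.126) or H373R replicate 3 (0.107).

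Spry4 stood at 108, 109 and 108 CPM in EV untreated, 102 and 104 CPM in EV auxin, 145, 147 and 146 CPM in FL, and 93.5, 92.6 and 92.3 CPM in H373R. Its 4 groups did not overlap, with FL highest and H373R lowest. FL lay at 0.51 ± 0.046 (SE) on the log2 scale against EV auxin and at 0.43 ± 0.041 against EV untreated. H373R lay at -0.65 ± 0.041 against FL and at -0.23 ± 0.041 against EV untreated, and all 4 differences were called in every alternative. H373R was also called below EV auxin, at -0.15 ± 0.046, and that call was kept in 11 of 19 alternatives. It was lost without EV untreated replicate 2 (-0.135), either EV auxin library (-0.16 and -0.134) or any H373R library (-0.15 to -0.134). Replicates of Spry4 lay closer together than those of any of the 500 genes of most similar level, with a within-group SD of 0.0124 on the log2 scale against a median of 0.0639.

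The windows before Dusp6 and Spry2 are shown as those of feedback genes that differ in their letters there, and a link to their levels was not tested. Dusp6 lies on chromosome 10 at 99263231 to 99267489 on the plus strand and Spry2 on chromosome 14 at 105891947 to 105896819 on the minus strand (RefSeq, GRCm38.p6). Their windows are chr10:99262981-99263230 and chr14:105896820-105897069, printed 5′ to 3′ in the direction of the gene. Capitals mark the same G-quadruplex pattern, which lies on the strand opposite to the one printed, 238 to 200 bases before the start of Spry2.
Dusp6: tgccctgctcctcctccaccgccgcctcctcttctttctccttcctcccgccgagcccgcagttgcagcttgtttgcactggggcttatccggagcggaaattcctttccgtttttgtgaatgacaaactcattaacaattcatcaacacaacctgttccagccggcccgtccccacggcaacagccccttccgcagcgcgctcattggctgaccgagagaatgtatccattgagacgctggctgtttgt
Spry2: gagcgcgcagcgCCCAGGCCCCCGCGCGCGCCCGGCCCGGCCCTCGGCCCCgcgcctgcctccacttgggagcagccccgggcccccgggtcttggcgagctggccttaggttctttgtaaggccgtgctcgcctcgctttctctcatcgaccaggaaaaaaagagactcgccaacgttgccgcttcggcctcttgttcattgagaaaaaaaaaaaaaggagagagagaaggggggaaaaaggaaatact

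Of the 10 genes, 6 were matched in the RefSeq promoter table (Fgf4, Fgf10, Fgfr2, Spry2, Dusp6 and Etv5), and Fgfr1, Spry4, Etv4 and Egr1 were not matched. For Fgfr2 and for window 2 of Etv5, no GENCODE M21 transcript of the gene held the bases just after the window. Among the 6, Fgf10 and Spry2 hold the G-quadruplex pattern, as do 16.6% of 32851 promoter windows of the same length. A core of the sequence CTCF is known to bind (CC, 3 free letters, AG, 2 free letters, GGC) is in 7.17% of windows, the ETS letters CCGGAA in 12% and the CArG box of serum response factor in 1.47%, searched on both strands, and in none of the 6. These are matches of letters only, and these files hold no measurement of binding.

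H373R and FL were called apart in 6 of the 10 genes, where 5.96% of all tested genes were called. The genes were chosen with these results known, so nothing is read from this count. Dusp6 (-0.74) and Spry4 (-0.65) had the largest log2 differences among the 6, followed by Fgfr2 (-0.40), Spry2 (-0.28), Etv5 (-0.26) and Fgf4 (-0.20). Fgf10, Etv4 and Egr1 were apart from EV auxin in both reintroduction groups and were not called between them. The primitive endoderm markers were lower in H373R than in FL as well, with 7 of 12 called and a median log2 fold change of -0.51, and their part in the lower feedback genes was not tested.

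The other genes of the pathway were read in 8 lists with 133 genes in the table, 122 of them tested. The lists were drawn up with earlier results of these data known. In EV auxin against EV untreated 34 of 122 were called (14 higher and 20 lower), where 20.7% of all tested genes were called. In FL against EV auxin 48 were called (32 higher and 16 lower), where the share of all tested genes was 24.5%. In H373R against EV auxin 47 were called (28 and 19), where it was 21.7%, and in H373R against FL 13 (2 and 11), where it was 5.96%. The counts of single lists below are to be read beside these shares, and nothing is called particular to a list from them. The medians of the 122 log2 fold changes were -0.002, 0.03, 0.05 and -0.012. Without EV untreated replicate 1 the counts were 49, 61, 61 and 30, while the share of all tested genes called was 33.3%, 35.5%, 33.0% and 14.2%.

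Among 12 tested ligand genes, 2 were called in EV auxin against EV untreated, 3 in FL against EV auxin and 6 in H373R against EV auxin, beside 20.7%, 24.5% and 21.7% of all tested genes. Fgf15, the mouse ligand that signals from gut to liver, was highest in H373R and had 23.5 to 24.4 CPM in EV untreated, 33.5 and 35.5 CPM in EV auxin, 48.3 to 53.5 CPM in FL and 55.5 to 57.0 CPM in H373R libraries. It rose by 0.53 ± 0.065 (SE, log2, edgeR adjusted p = 2.97e-05) in EV auxin against EV untreated. It rose further by 0.55 ± 0.063 in FL (adjusted p = 2.97e-05) and by 0.71 ± 0.062 in H373R (adjusted p = 9.09e-06) against EV auxin.

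Among 21 tested receptor and co-receptor genes, 9 were called in EV auxin against EV untreated (3 higher and 6 lower) and 8 each in FL and H373R against EV auxin (7 higher and 1 lower in both), beside the same 20.7%, 24.5% and 21.7%. Klb, the co-receptor for FGF15, had 1.16 and 1.37 CPM in EV auxin, 5.85 to 6.11 CPM in FL and 3.04 to 3.66 CPM in H373R libraries. It rose by 2.26 ± 0.18 (adjusted p = 2.36e-07) in FL and by 1.41 ± 0.18 (adjusted p = 8.45e-05) in H373R, and was lower in H373R than in FL by -0.85 ± 0.11 (adjusted p = 0.000268). Ext2, which builds heparan sulphate chains, fell by 0.98 on the log2 scale in EV auxin against EV untreated (adjusted p = 1.56e-07) and was higher by 0.51 ± 0.075 in FL than in EV auxin (adjusted p = 0.000226).

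Among the 23 genes of the cascade from adaptor to kinase, 3 were called in EV auxin against EV untreated, 8 in FL and 7 in H373R against EV auxin, beside 20.7%, 24.5% and 21.7% of all tested genes. The called differences were small. Grb2, the adaptor between receptor and RAS, fell by 0.32 in FL (adjusted p = 0.000363) and by 0.28 in H373R (adjusted p = 0.00124) against EV auxin, and Shc1, another adaptor, rose by 0.24 (adjusted p = 0.0045) and 0.26 (adjusted p = 0.00274).

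Inhibitor and feedback genes outside the 10 did not move in 1 direction. Of 21 tested, 11 were called in FL against EV auxin (6 higher and 5 lower), 9 in H373R against EV auxin (4 higher and 5 lower) and 2 in H373R against FL, both lower, beside 24.5%, 21.7% and 5.96% of all tested genes. Dusp4, which encodes another phosphatase that acts on ERK, rose by 0.53 ± 0.089 in FL (adjusted p = 0.00063) and by 0.37 ± 0.088 in H373R (adjusted p = 0.0084) against EV auxin. Dusp1 rose by 0.46 in FL (adjusted p = 0.000576) and 0.61 in H373R (adjusted p = 0.000113). Nf1, which switches RAS off, fell by 0.67 in FL (adjusted p = 0.000119) and by 0.77 in H373R (adjusted p = 7e-05). Spred1, a relative of the Sprouty genes, was lower in H373R than in FL at -0.31 ± 0.065 (adjusted p = 0.00929), a call that was lost without FL replicate 3 (-0.289). Spry1 was not called in any of the 6 comparisons, at 0.26 ± 0.098 in FL against EV auxin (adjusted p = 0.0647) and -0.16 ± 0.086 in H373R against FL (adjusted p = 0.32). Without EV untreated replicate 1 the Spry1 difference between FL and EV auxin was called, at 0.28 (adjusted p = 0.0149).

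Of 15 tested ETS factors and other ERK targets, 8 were called in FL against EV auxin (6 higher and 2 lower), 5 in H373R against EV auxin (3 and 2) and 4 in H373R against FL, all lower, beside 24.5%, 21.7% and 5.96% of all tested genes. Epha4 had 165 and 168 CPM in EV auxin, 216 to 255 CPM in EV untreated, 236 to 243 CPM in FL and 186 to 203 CPM in H373R libraries. This order is that of Fgf4, with EV auxin lowest, H373R next and FL overlapping EV untreated. Epha4 was lower in EV auxin than in EV untreated at -0.51 ± 0.064 (adjusted p = 4.39e-05), higher in FL than in EV auxin at 0.53 ± 0.064 (adjusted p = 4.88e-05), and H373R lay below FL at -0.29 ± 0.057 (adjusted p = 0.00669). Ets2 fell by 0.47 in EV auxin against EV untreated (adjusted p = 0.000179) and rose by 0.45 in FL and 0.43 in H373R against EV auxin (adjusted p = 0.000389 and 0.000644).

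Of 13 tested immediate early genes other than Egr1, 4 were called in FL against EV auxin (3 higher and 1 lower) and 4 in H373R, all higher, beside 24.5% and 21.7% of all tested genes. Ccn1, a matrix protein gene, had 10.7 and 12.6 CPM in EV auxin, 19.1 to 20.9 CPM in FL and 12.2 to 13.2 CPM in H373R libraries. It rose by 0.76 ± 0.091 in FL against EV auxin (adjusted p = 4.23e-05) and was lower in H373R than in FL at -0.63 ± 0.079 (adjusted p = 0.000171). Zfp36, which destabilises AU-rich transcripts, rose by 0.39 in FL (adjusted p = 0.00321) and by 0.69 in H373R (adjusted p = 6.4e-05) against EV auxin. Klf10 rose by 0.38 and 0.41 (adjusted p = 0.00019 and 0.000194). Egr1 lay below EV auxin in both groups in which Zfp36 and Klf10 rose.

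Of 10 genes that regulate Fgf4 or mark the naive state, 5 were called in EV auxin against EV untreated (1 higher and 4 lower), 5 in FL against EV auxin (3 and 2) and 4 in H373R against EV auxin (2 and 2), beside 20.7%, 24.5% and 21.7% of all tested genes. Nanog, a naive factor that FGF-ERK signalling is known to restrain, fell by 0.35 in FL (adjusted p = 0.00107) and by 0.23 in H373R (adjusted p = 0.0161) against EV auxin. The H373R call was lost without EV auxin replicate 1 (-0.202), EV auxin replicate 2 (-0.257) or H373R replicate 1 (-0.212). Zfp42 (Rex1) fell by 0.30 in FL and by 0.48 in H373R (adjusted p = 0.000457 and 2.8e-05). Other naive factors rose against EV auxin. Tbx3 was higher by 0.21 in FL and 0.22 in H373R (adjusted p = 0.00892 and 0.00895). Esrrb was higher by 0.18 and 0.16 (adjusted p = 0.00922 and 0.0207). The Tbx3 and Esrrb calls were all lost without EV auxin replicate 1. Both Tbx3 calls and the H373R call of Esrrb were also lost without EV auxin replicate 2. The H373R call of Esrrb was lost without H373R replicate 1 as well. In EV auxin against EV untreated, Esrrb and Prdm14 fell by 0.33 and 0.41 (adjusted p = 0.000108 and 0.00017) and Klf4 rose by 0.35 (adjusted p = 5.32e-05). Of 7 genes of the LIF branch, 1 was called in FL against EV auxin and 4 in H373R, beside 24.5% and 21.7% of all tested genes.

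**Figure D3:**
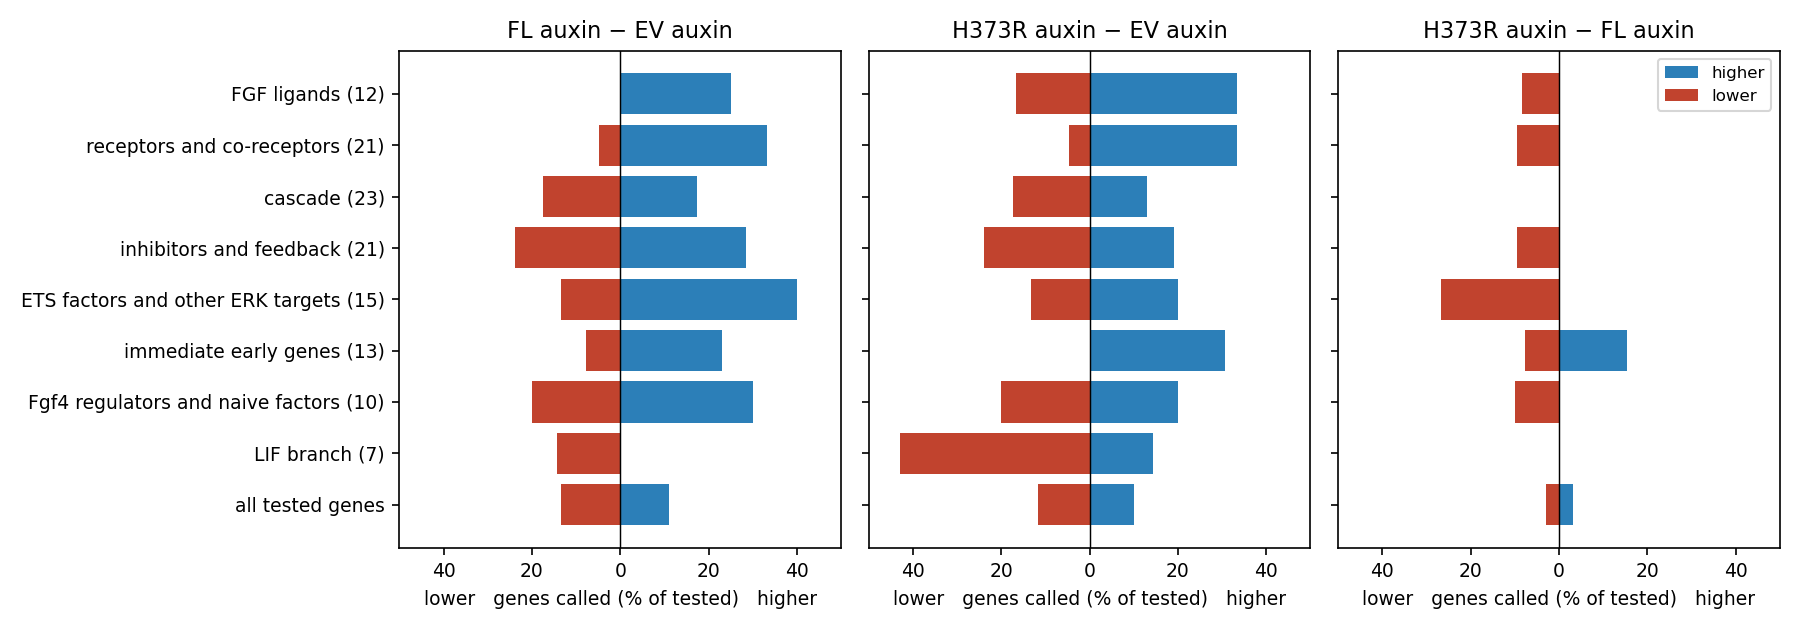
Share of the tested genes of each pathway list called higher (right of 0) or lower (left of 0) at an adjusted p under 0.05, in percent, with the number of tested genes in brackets, for the 3 comparisons between auxin-treated groups. The lowest bars give all tested genes (11.1% higher and 13.4% lower in FL against EV auxin), and in the right panel the ETS factors and other ERK targets have 4 of 15 genes lower.

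The surroundings of Fgf4 were examined because Fgf3, Fgf15 and the ERK target Ccnd1 lie beside it on chromosome 7, with gaps of 18, 31.3 and 64.7 kb between gene bodies in RefSeq. These neighbours were chosen after their values were seen. Of 7 tested genes within 250 kb, 2 were called in EV auxin against EV untreated, both higher, where 20.7% of all tested genes were called, and nothing about the region is read from this count. They were Fgf15, with the values above, and Ano1, a chloride channel gene 109 kb away, at 0.79 ± 0.21 (adjusted p = 0.0136). In FL against EV auxin 5 of the 7 were called, 4 higher and 1 lower, where 24.5% of all tested genes were called. Fgf3 (0.53 ± 0.13, adjusted p = 0.00755), Fgf15, the noncoding Bc1 (0.86 ± 0.20, adjusted p = 0.00651) and Ccnd1 (0.26 ± 0.049, adjusted p = 0.00147) were higher. LTO1, which lies 49.9 kb from Fgf4 and whose coordinates overlap those of Ccnd1, so that its counts are uncertain, was lower, at -0.51 ± 0.17 (adjusted p = 0.0402), and was lower in H373R than in EV auxin as well, at -0.56 ± 0.16 (adjusted p = 0.0235). In H373R against EV auxin 3 of the 7 were called, Fgf3 (0.41 ± 0.13, adjusted p = 0.0294) and Fgf15 higher and LTO1 lower, where 21.7% of all tested genes were called. Several of these calls rested on single libraries. Without EV auxin replicate 2, the calls of Ano1 in EV auxin against EV untreated (0.54) and of Fgf3 (0.46) and Bc1 (0.60) in FL against EV auxin were lost. The H373R call of Fgf3 was lost with DESeq2 (0.41) and without EV auxin replicate 1 (0.47), EV auxin replicate 2 (0.33), H373R replicate 2 (0.37) or H373R replicate 3 (0.36). The FL call of LTO1 was lost with DESeq2 (-0.49) and without EV auxin replicate 1 (-0.42), EV auxin replicate 2 (-0.60), FL replicate 1 (-0.51), FL replicate 3 (-0.41) or H373R replicate 1 (-0.49). Its H373R call was lost without EV auxin replicate 1 (-0.47), EV auxin replicate 2 (-0.66), H373R replicate 1 (-0.57) or H373R replicate 2 (-0.40). In EV auxin against EV untreated, Fgf3 was at 0.16 ± 0.13 and Ccnd1 at -0.04 ± 0.048, neither called. The noncoding Gm26793 overlaps the Fgf15 gene and had 2 to 19 counts per library.

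**Figure D4:**
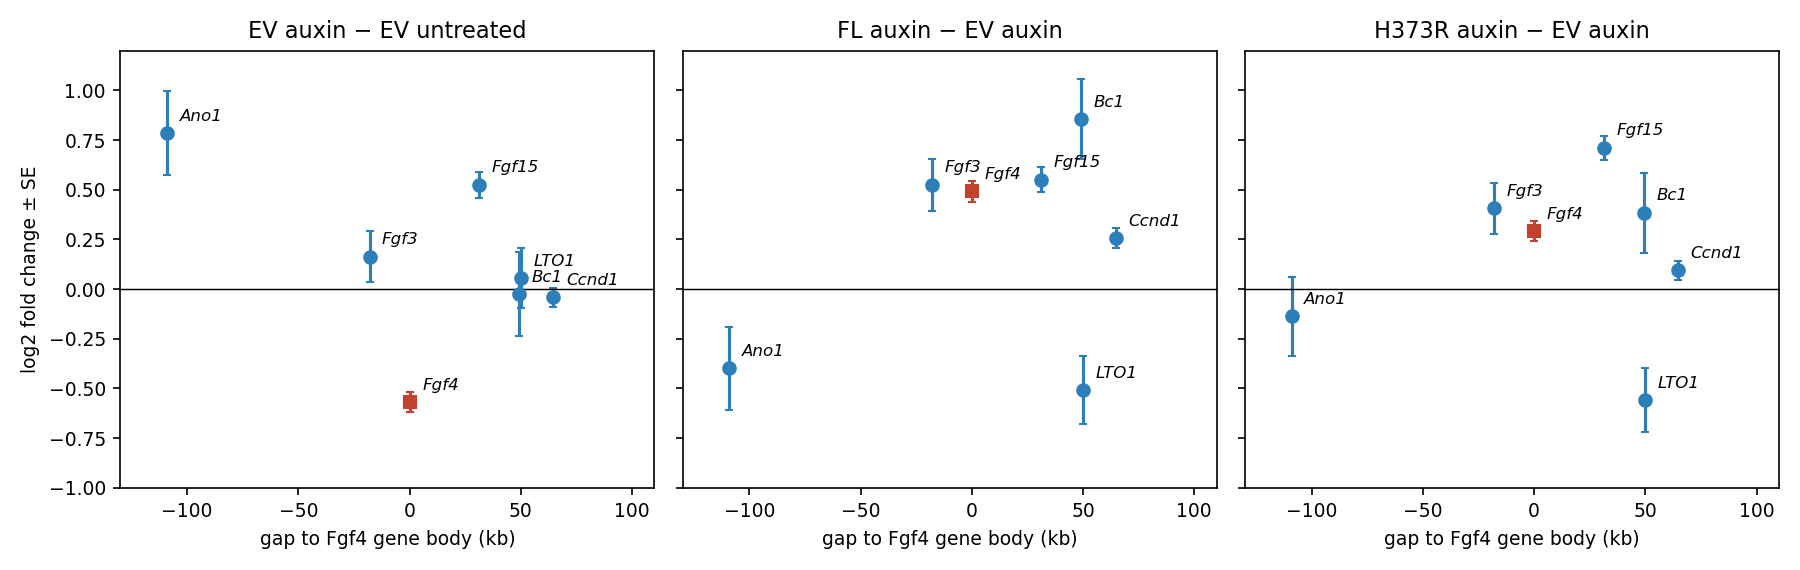
Log2 fold change with its standard error (vertical axis) for Fgf4 (red square) and 6 of its 7 tested neighbours (blue circles; the low Gm26793 is not drawn), placed by the gap between gene bodies in kb (horizontal axis; negative is the side of Ano1). In the left panel Fgf4 lies at -0.57 and Fgf15 at 0.53, and in the middle and right panels both lie above 0 and LTO1 lies below it.

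Spry4 has a close neighbour in Arhgap26, a GTPase regulator gene which is read in the opposite direction and whose body begins 0.27 kb from that of Spry4 in RefSeq. The gap depends on the annotation, as the Spry4 body reaches 38601347 in RefSeq and 38601415 in GENCODE M21. Arhgap26 too was chosen after its values were seen. Arhgap26 was higher in EV auxin than in EV untreated by 0.67 ± 0.11 (adjusted p = 0.000412), lower in FL than in EV auxin at -0.73 ± 0.11 (adjusted p = 0.00035) and higher in H373R than in FL by 0.51 ± 0.10 (adjusted p = 0.00815). The last of these calls was lost without H373R replicate 1, at 0.43. Spry4 stood at -0.08 (not called), 0.51 and -0.65 in these comparisons, each of the opposite sign. In H373R against EV auxin both were negative, Arhgap26 at -0.22 ± 0.11 (adjusted p = 0.15, not called) and Spry4 at -0.15.

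Across the 11 libraries, which fall into 4 groups, Spry4 and Dusp6 varied most alike among the feedback genes (Pearson r = 0.879), and Spry2 and Dusp6 had r = 0.864. Fgf10 was most like Etv4 among the 10 (r = 0.941). Within groups, after each group's mean was removed, these pairs had r of -0.463, -0.184 and -0.531, so the likeness over all 11 came from the differences between group means. Fgf4, Fgfr1, Fgfr2, Etv5 and Egr1 had no partner among the 10 with a positive r above 0.733. Egr1 varied in the opposite direction to Fgf10 (r = -0.891), Etv4 (-0.873) and Dusp6 (-0.736). Within groups, r of Egr1 with these genes was -0.032, -0.043 and 0.234. Among 12716 candidate genes whose mean log2 CPM was 1 or more, the gene most like each was Inpp5e for Fgf4 (0.986), Tent5a for Fgf10 (0.979), Edc4 for Fgfr1 (0.947) and L1td1 for Fgfr2 (0.916). It was Trib1 for Spry2 (0.963), Ngrn for Spry4 (0.952), Acta2 for Dusp6 (0.981), Pmepa1 for Etv4 (0.994), Tdrd12 for Etv5 (0.995) and Epb41l3 for Egr1 (0.981). Inpp5e, for example, had means with SD of 10.2 ± 0.112 CPM in EV untreated (n = 3), 3.73 ± 0.287 in EV auxin (n = 2), 8.77 ± 0.0758 in FL (n = 3) and 6.33 ± 0.248 in H373R (n = 3), the order of Fgf4. The points of each r share libraries, groups and scaling, so these values describe likeness of pattern in these libraries alone.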

How the data were processed

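The authors deposited raw counts and TPM by gene symbol, and both were read for 11 libraries. Count columns held whole numbers with different totals, and all TPM columns had the same total. The submitters' processing notes name featureCounts, Subread 2.0.3, DESeq2, mm10 and GRCm38, without their roles. The aligner, annotation and use of strand are not given in the sources used here, so overlapping genes are uncertain. Any further EV auxin library was not used here.

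The test was the quasi-likelihood F test of edgeR 4.0.16 (R 4.3.3) on the counts as deposited. Libraries were scaled by TMM, low genes were removed by filterByExpr with the groups, and 1 model of group means was fitted to all 11 libraries, so that the EV auxin pair borrows the spread of the other groups. P-values were adjusted by Benjamini-Hochberg over 16420 genes. CPM values are TMM-scaled, and TPM was used only to compare levels between genes and sum markers. Likeness was computed on log2 CPM (prior count 2). The common biological coefficient of variation was 0.0578. In simulated counts for EV auxin against EV untreated over 16420 genes, 200 genes were changed 2-fold. Of these, edgeR found 99.5% with 9 false calls, and DESeq2 1.42.0 found 99.5% with 12. The FGF-ERK genes changed less than 2-fold in that comparison (log2 fold changes of -0.569 to 0.266). The simulation therefore does not show how often differences of their size are found. Promoter windows, gene positions and overlaps are from RefSeq (GRCm38.p6), and the windows were read with Python 3.11.15. GENCODE M21 was read for transcripts and for further gene positions.

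The 10 genes, the pathway and marker lists, the tests and the alternatives were chosen with earlier results of these data known. Named genes are all 10, marker genes, up to 4 genes of each pathway list and comparison with the smallest adjusted p among those called (fewer are printed), and the genes most alike. Spry1, named as a relative of Spry2 and Spry4, Gata6 and the neighbours of Fgf4 and Spry4 were named after their values were seen. The listed symbols Spry3 and Cyr61 were not found in the table, the latter as Ccn1. Of 8 fibroblast markers, 5 were tested, and 2 were called higher in FL and in H373R than in EV auxin. Alternatives were upper quartile and RLE scaling, DESeq2, robust dispersion, a fit without the filter, a minimum of 10 counts per library, a fit to the compared groups alone, a replicate block, and leaving out each library in turn.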

Additional observations from a re-analysis of the deposited data

How the results depend on the processing

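Over the 10 genes, the 6 comparisons and 19 alternatives, 1067 of 1140 log2 fold changes kept their call, 69 lost it, 4 gained one, and no called value changed sign. Of 3089 values of named pathway genes, 2933 kept their call, 156 lost it and none changed sign. With no filter on low counts, 5 of the 10 genes were called in H373R against EV auxin. With only the libraries compared in the fit, 21 pathway genes were called in EV auxin against EV untreated and 24 in H373R against FL. When each library was left out in turn, the count among the 10 genes was 2 to 4 in EV auxin against EV untreated, 7 to 9 in FL against EV auxin, 4 to 8 in H373R against EV auxin, 4 to 7 in H373R against FL, and 7 to 8 in each group against EV untreated. The pathway counts were 18 to 49, 29 to 61, 24 to 61, 4 to 30, 54 to 73 for FL and 62 to 80 for H373R. The highest pathway counts came without EV untreated replicate 1 and the lowest mostly without an EV auxin library or FL replicate 3; the smaller number of libraries is part of each fit, and other causes were not tested. Same-numbered libraries of different groups did not deviate together (r of -0.087 to 0.282 over 15 pairs, against -0.197 to 0.134 over 30 pairs of different number), so the numbers were not taken as pairs. With the replicate block, 3, 7, 6, 6, 8 and 8 of the 10 genes and 30, 45, 49, 10, 64 and 74 pathway genes were called, in the order EV auxin against EV untreated, FL and H373R against EV auxin, H373R against FL, FL and H373R against EV untreated. Apart from leaving out EV untreated replicate 1, the share of all tested genes called under these alternatives is not given here. Nothing about the pathway is therefore read from these counts. RLE and upper quartile scaling moved the median of all genes by less than 0.1 on the log2 scale. With 2 EV auxin libraries, each comparison with that group rests on few libraries, and Fgf10 rests on 43 to 138 counts per library.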
